A study of Homo sapiens with 34 samples.

Results

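Expression was examined for 9 genes of iron storage, heme breakdown, and detoxification that are known targets of the transcription factor NRF2: *NQO1*, *HMOX1*, *OSGIN1*, *FTH1*, *FTL*, *AKR1B1*, *AKR1C1*, *EPHX1*, and *ABCC1*. They were taken by gene name from the 28690 loci of the RNA sequencing (RNA-seq) tables, and were selected on measured values of these data, as genes known to differ in direction between cells given 6-aminonicotinamide (6AN) and control cells. The 9 names matched 10 loci, because *ABCC1* also has a row on an alternate chromosome 16 contig that was listed at 0 in all 24 RNA-seq libraries. Of the 9 genes, 8 were among the 13979 loci with a mean of at least 1 FPKM (fragments scaled by transcript length and library size) over the 24 libraries, and *AKR1C1* was not.

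NRF2 is a transcription factor that is held in the cytoplasm and marked for degradation by KEAP1, an adaptor protein with reactive cysteines. When those cysteines are modified by oxidants or electrophiles, NRF2 enters the nucleus and binds antioxidant response elements together with a small MAF protein. BACH1, a heme-binding repressor, occupies many of the same elements, and *HMOX1* and the ferritin genes are well-known targets of both factors.

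The cells were *Bmal1*:*luc* U2OS, a human osteosarcoma line in which the *Bmal1* promoter controls a stably integrated luciferase. All cultures of the time course were synchronized with dexamethasone and then grown with 5 mM 6AN, which yields an NADP analog that inhibits the NADPH-producing enzymes of the pentose phosphate pathway, or with DMSO as control. RNA-seq libraries carried circadian time (CT) labels from CT00 to CT44 in steps of 4 hr, with 1 library per label and condition, so that each condition had 12 libraries and no replicate at any label. The labels do not say how long after the start of 6AN the CT00 sample was taken. RNA was extracted in triplicate according to the study's methods, and whether extracts were pooled is not stated there. Chromatin immunoprecipitation sequencing (ChIP-seq) of BMAL1, CLOCK, H3K9ac, and H3K4me3, with input, comprised 1 library per condition at 24 hr of treatment. The data come from a single cell line and 1 course per condition, so the spread across labels holds both time and library variation.

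Control and 6AN levels were normalized by the study in separate tables. Ratios between them are therefore given as a description, and tests were made only within a table. Relative depth was estimated from loci above 0 in 2 to 4 libraries of a table, as the most common ratio of a library to that of CT16. It ranged from 0.58 to 1.31 times the median library in control and from 0.70 to 1.56 times in 6AN. The most common ratio was shared by 38.5% to 54.2% of these loci in control and by 48.3% to 66.7% in 6AN, so the estimate is rough. The summed FPKM of a library was 975321 to 1089300 in control and 1080810 to 1281610 in 6AN. The locus of highest FPKM held 17.2% to 19.6% of this sum in control and 20.3% to 24.3% in 6AN, and its part in the ratios between tables was not tested. Of 5 markers listed for the line, *SPARC*, *COL1A1*, *VIM*, and *RUNX2* were expressed and *TWIST1* was not. The 5 summed to 1195 to 1608 FPKM in control and 796 to 1154 in 6AN. Mean *SPARC* was 323 FPKM in control and 129 in 6AN, and mean *COL1A1* was 128 and 33.9. Mean *VIM* was 917 and 747 FPKM, and mean *RUNX2* was 14.0 and 13.9. The part of these differences in the results below was not tested. The 10 markers of other cell types summed to at most 2.98 FPKM in any library.

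The promoters of 3 genes are shown as examples. That of *OSGIN1* held BMAL1 and CLOCK peaks and the transcript was higher in 6AN, that of *FTL* held peaks and the transcript overlapped between conditions, and that of *NQO1* held no peak and the transcript was lower. *AKR1B1*, *EPHX1*, and *AKR1C1* also had no peak. Of these, *AKR1B1* was lower in 6AN at all 12 labels and *EPHX1* overlapped. *AKR1C1* was higher at all 12 labels but close to undetected. Whether peaks and direction are related was not tested. The 250 bases before the RefSeq gene start are shown 5′ to 3′ on the coding strand of each gene, in GRCh38.p14, with any match to the motifs below in capitals.
OSGIN1: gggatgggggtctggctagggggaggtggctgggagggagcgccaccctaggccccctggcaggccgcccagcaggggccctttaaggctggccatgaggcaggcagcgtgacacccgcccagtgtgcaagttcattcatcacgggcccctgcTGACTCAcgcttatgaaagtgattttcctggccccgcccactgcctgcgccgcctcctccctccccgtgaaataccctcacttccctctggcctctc
FTL: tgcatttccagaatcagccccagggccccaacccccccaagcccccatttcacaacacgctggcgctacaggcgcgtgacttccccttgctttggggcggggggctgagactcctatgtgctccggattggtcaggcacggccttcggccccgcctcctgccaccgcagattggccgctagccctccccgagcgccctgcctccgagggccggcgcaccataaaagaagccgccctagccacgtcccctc
NQO1: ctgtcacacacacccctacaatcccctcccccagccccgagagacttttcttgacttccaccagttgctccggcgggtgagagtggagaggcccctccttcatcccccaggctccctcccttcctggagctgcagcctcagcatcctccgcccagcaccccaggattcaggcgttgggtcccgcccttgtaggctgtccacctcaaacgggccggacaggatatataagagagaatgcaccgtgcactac
These windows lie at chr16:83952990-83953239 on the plus strand, chr19:48965059-48965308 on the plus strand, and chr16:69726561-69726810 on the minus strand. RefSeq promoter windows matched 6 of the 9 genes, the others being *EPHX1*, *AKR1B1*, and *AKR1C1*. Both strands were searched for TGACNNNGC, the core of the antioxidant response element, for TGANTCA, a site of AP-1 factors, and for CACGTG, the E-box that BMAL1 and CLOCK bind. Among all 35116 promoter windows of this length, these letters occurred in 10.9%, 6.57%, and 6.34%, respectively. The only match in the 6 windows was a TGANTCA site in *OSGIN1*, which began 97 bases before the gene start, at position 83953143 of chromosome 16. Sequence outside these 250 bases was not searched, so elements of these genes that lie farther away would be missed. The motifs were chosen after the expression values had been seen.

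The 2 chains of ferritin, the shell that stores iron, differed from each other under 6AN. *FTH1*, the heavy chain that oxidizes iron (chr11:61949884-61967660), had 1000 FPKM at its lowest control label, a median of 1088, and 1161 at its highest. In 6AN the lowest value was 1583, the median 1787, and the highest 2041. All 12 libraries of 6AN lay above all 12 of control. Mean *FTH1* was 1.65-fold higher in 6AN, with a mean log2 ratio of 0.72 ± 0.09 (SD over 12 labels), on the scale of log2(FPKM + 1) used for all ratios by label. Within a library, *FTH1* ranked between the 99.2 and 99.3 percentiles of expressed loci in control and between 99.4 and 99.5 in 6AN.

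*FTL*, the light chain that helps form the iron core (chr19:48965309-48966879), spanned 1811 to 2449 FPKM in control around a median of 2069. It spanned 1846 to 2448 in 6AN around a median of 2104. These ranges overlapped almost fully, with the 6AN library higher at 8 of 12 labels and a mean log2 ratio of 0.02 ± 0.17. The ratio of *FTH1* to *FTL* within a library does not depend on how the tables were scaled. It was 0.526 ± 0.039 in control, with a range of 0.462 to 0.576, and 0.854 ± 0.028 in 6AN, with a range of 0.804 to 0.889 (SD, n = 12 libraries each). The ratio was thus higher in each 6AN library than in any control library. Ferritin genes have many processed pseudogenes, and short reads from these copies can be shared. The merged *FTH1* locus also overlaps *BEST1*, a chloride channel gene, whose own mean was 0.177 FPKM in control and 0.426 in 6AN.

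*HMOX1*, heme oxygenase, which opens heme and frees its iron (chr22:35381067-35394214), did not separate the conditions. It had a low of 26.6, a median of 30.1, and a high of 44.1 FPKM in control, and a low of 23.4, a median of 29.4, and a high of 62.1 in 6AN. The 6AN library was the higher at 4 of 12 labels, and the mean log2 ratio was -0.03 ± 0.25. The highest value was that of CT44 in 6AN, where control had 44.1 FPKM, and the next highest 6AN value was 38.8 at CT40.

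*NQO1*, a quinone reductase that is a standard readout of NRF2 activity (chr16:69709401-69726668), was lower in 6AN. Its control values had a low of 32.8, a median of 37.6, and a high of 60.6 FPKM. Those of 6AN had a low of 16.3, a median of 20.2, and a high of 27.7. Every 6AN library was below every control library, the mean was 0.503 times that of control, and the mean log2 ratio was -0.95 ± 0.21. The rank of *NQO1* within a library moved from between the 79.1 and 88.6 percentiles of expressed loci in control to between 63.5 and 75.7 in 6AN.

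*AKR1B1*, aldose reductase, which uses NADPH to reduce glucose and aldehydes (chr7:134442355-134459136), was also lower. It had a low of 57.9, a median of 64.2, and a high of 81.7 FPKM in control, against a low of 36.9, a median of 49.0, and a high of 57.6 in 6AN. The ranges were separate but only just, since the highest 6AN library, at CT00, had 57.6 FPKM and the lowest control library, at CT16, had 57.9. The mean was 0.723 times that of control, with a mean log2 ratio of -0.47 ± 0.18. Within a library, *AKR1B1* ranked between the 88.8 and 91.5 percentiles of expressed loci in control and between 82.8 and 89.2 in 6AN. Its ratio to *FTL* in the same library was 0.0283 to 0.0342 in control and 0.0160 to 0.0288 in 6AN. On both of these measures the conditions overlapped.

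*EPHX1*, microsomal epoxide hydrolase (chr1:225810074-225882720), and *ABCC1*, an efflux pump for glutathione conjugates (chr16:15949577-16143073), overlapped between conditions. *EPHX1* spanned 38.7 to 55.1 FPKM in control around a median of 47.0 and 37.8 to 56.9 in 6AN around a median of 42.8. *ABCC1* spanned 4.40 to 6.50 FPKM in control around a median of 5.60 and 4.20 to 6.36 in 6AN around a median of 4.73. Each was lower in 6AN at 9 of 12 labels, with mean log2 ratios of -0.11 ± 0.13 and -0.14 ± 0.16. The SD here is the spread over labels and not the error of the mean. The *EPHX1* locus overlaps *TMEM63A*, a membrane channel gene, at 7.54 FPKM in control and 6.61 in 6AN.

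*AKR1C1*, a hydroxysteroid and aldehyde reductase (chr10:4963262-4977966), was close to undetected. It was listed at 0 in 7 control libraries and reached 0.319 FPKM in the highest, and it ranged from 0.148 to 1.09 in 6AN around a median of 0.585. After each library was scaled by the worth of a read, all values above 0 were whole multiples of the smallest in their table, within 0.03 of a step. If that smallest value is 1 read, control held 7 reads in all and at most 3 in a library, whereas 6AN held 59 in all and 1 to 11 in a library. The 6AN library was the higher at all 12 labels, but the ranges overlapped and the depth is too low for a fold change. *AKR1C1* is nearly identical to *AKR1C2*, which had 0.0386 FPKM in control and 0.147 in 6AN, so reads can be split between them.

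*OSGIN1*, an oxidative stress-induced growth inhibitor (chr16:83953222-83966332), had the greatest ratio among the 8 expressed genes. It had a low of 9.02, a median of 11.7, and a high of 13.3 FPKM in control, and a low of 18.4, a median of 25.1, and a high of 36.3 in 6AN. All 6AN libraries were above all control libraries, with a mean 2.30-fold higher and a mean log2 ratio of 1.12 ± 0.25. Set against *NQO1* in the same library, *OSGIN1* was at 0.286 ± 0.063 in control and 1.29 ± 0.27 in 6AN. The highest control ratio, 0.382, was under the lowest 6AN ratio, 0.757. Because the ranges of both genes were already separate, in opposite directions, this separation of their ratio follows from them and is no further result.

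**Figure D1:**
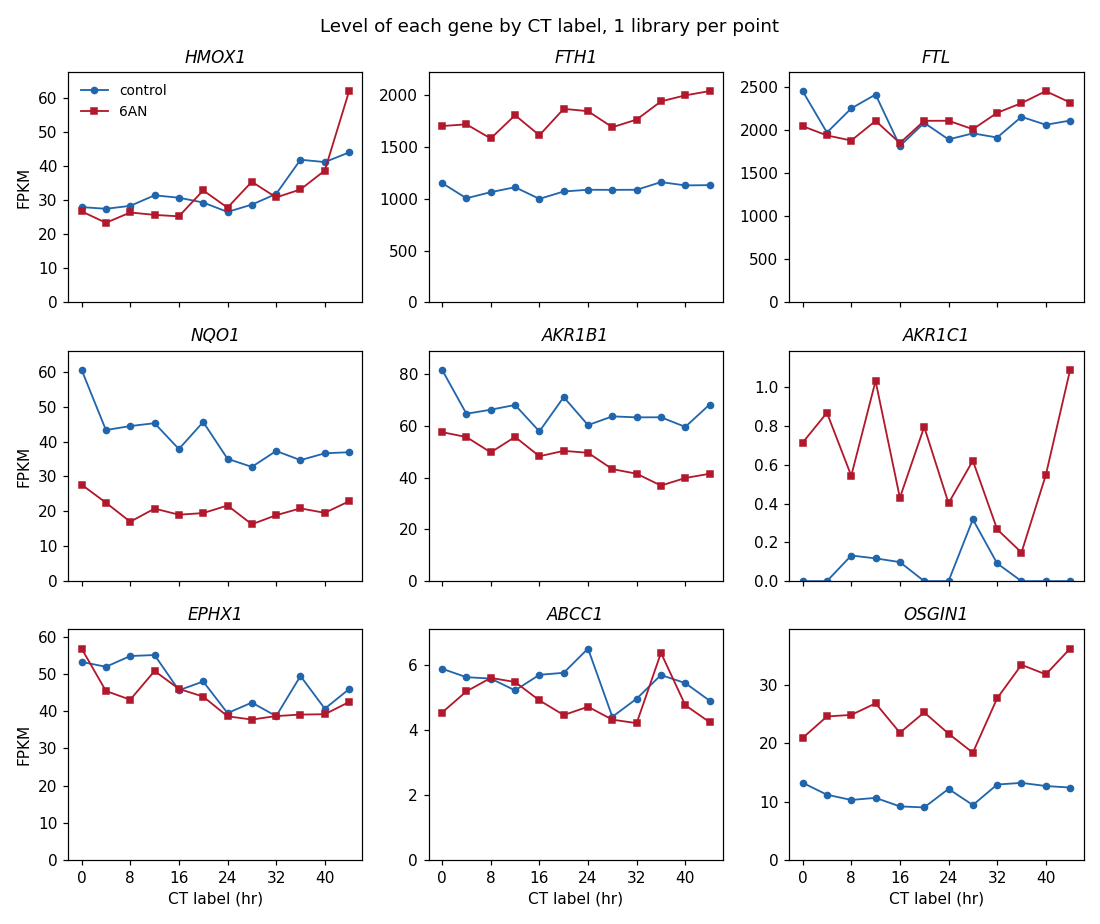
FPKM of each gene (vertical axis, from 0) against CT label in hr (horizontal axis), 1 library per point, with control in blue circles and 6AN in red squares. *FTH1* and *OSGIN1* lie above control throughout, *NQO1* and *AKR1B1* below, and the lines of *HMOX1*, *FTL*, *EPHX1*, and *ABCC1* cross.

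**Figure D2:**
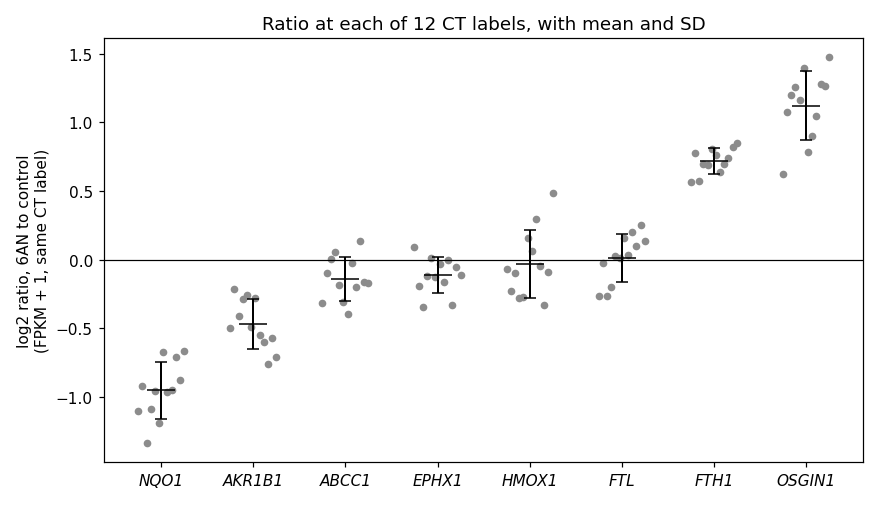
Log2 ratio of 6AN to control at the same CT label, from FPKM + 1, for the 8 expressed genes, with 12 gray points per gene in CT order from left to right and the mean with SD in black. The means run from -0.95 for *NQO1* to 1.12 for *OSGIN1*.

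Across the 8 expressed genes, 2 were higher in 6AN at all 12 labels (*FTH1* and *OSGIN1*), 2 were lower at all 12 (*NQO1* and *AKR1B1*), and 4 were mixed. Over all expressed loci, 13% were higher at all 12 labels and 20.4% were lower. The ranges of the same genes were separate, which held for 5.89% of expressed loci in the upward direction and 10.3% in the downward. The median of the mean log2 ratios was -0.07 for the 8 genes and -0.04 for all expressed loci. Because the genes were chosen knowing this contrast, nothing is read from these counts.

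The genes around the pathway were described in the same way, by ratios of mean FPKM. Of 7 regulators, all expressed, 5 were higher at all 12 labels and 0 lower, with a median log2 ratio of 0.48 against -0.05 over all expressed loci. Among all expressed loci, 13% were higher at all 12 labels and 20.4% were lower. *MAFK* and *MAFF*, which encode small MAF partners of NRF2, had the highest ratios, with *MAFK* at 26.9 ± 2.8 FPKM in control and 61.6 ± 5.9 in 6AN and *MAFF* at 20.9 ± 3.4 and 34.2 ± 5.8 (SD, n = 12). The lowest were *NFE2L1*, a relative of NRF2, at 64.1 and 62.5 FPKM, and *KEAP1*, at 24.5 and 27.8 FPKM. *NFE2L2* itself, the gene of NRF2, was at 33.7 ± 2.6 and 39.5 ± 4.1 FPKM and was higher at 11 of 12 labels.

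Other NRF2 targets also went both ways. Of 29 listed, 27 were expressed, of which 7 were higher at all labels, 6 were lower, and 14 were mixed, with a median log2 ratio of -0.12. Expressed loci at large also went both ways, with 13% higher and 20.4% lower at all labels. The count of lower targets was near that share. *SRXN1*, which restores over-oxidized peroxiredoxins, was at 25.8 ± 2.8 FPKM in control and 53.8 ± 10.8 in 6AN. *SLC7A11*, the cystine importer, was at 6.40 ± 2.55 and 13.3 ± 2.8 FPKM. *PIR*, an iron-binding nuclear protein gene, was at 9.13 ± 1.83 and 4.68 ± 1.06 FPKM at a locus merged with *FIGF*, and *MGST1*, a membrane glutathione transferase, was at 11.9 ± 2.2 and 7.87 ± 1.65 FPKM. *PIR* was lower at all 12 labels and *MGST1* at 10. The aldo-keto relatives had 3 of 8 expressed, of which *AKR1A1* was lower at all labels, at 74.9 and 59.6 FPKM, while *AKR7A2* (17.8 and 18.2 FPKM) and *AKR1C3* (10.3 and 10.7 FPKM) were mixed.

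Of the iron-handling genes other than ferritin, 15 of 16 were expressed, of which 2 were higher at all labels, 1 was lower, and 12 were mixed. These counts were near or below the shares over all expressed loci, 13% higher and 20.4% lower. *PCBP2*, an RNA-binding protein that also carries iron to ferritin (at a locus merged with *PCBP2-OT1*), was at 410 ± 12 FPKM in control and 608 ± 40 in 6AN, and *ISCU*, the scaffold of iron-sulfur cluster assembly, was at 34.0 ± 1.3 and 42.4 ± 7.8. *ACO1*, the iron regulatory protein that binds ferritin mRNA, was at 48.2 ± 2.5 and 36.9 ± 2.3 FPKM, and *SLC11A2*, an iron importer, was at 16.1 ± 1.5 and 14.3 ± 1.3. Of the 14 genes of heme synthesis, transport, and breakdown, 1 was higher and 5 were lower at all labels, beside the same shares. *UROS* and *UROD*, successive enzymes of heme synthesis, had the lowest ratios, at 29.5 ± 2.8 against 13.4 ± 1.6 FPKM and at 66.2 ± 6.1 against 45.7 ± 4.1. *ABCB6*, a porphyrin transporter, was at 1.05 ± 0.26 and 1.52 ± 0.38 FPKM, and *SLC48A1*, a heme transporter, at 14.3 ± 0.9 and 17.4 ± 1.0.

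Change over the time course was tested within each table. The genes were chosen by the contrast between conditions and not by a slope, but the same libraries enter both and earlier results were known, so the calls are no independent support for the choice. A linear term in CT was fitted with limma to log2(FPKM + 1), with Benjamini-Hochberg adjustment over 13979 loci and a threshold of 0.05. In 6AN, all 3 genes of iron and heme rose and 2 of the 4 expressed detoxification genes fell. *HMOX1* rose by 0.50 ± 0.11 (SE) log2 units per 24 hr (limma adjusted p = 0.0058), *FTL* by 0.16 ± 0.04 (limma adjusted p = 0.0155), and *FTH1* by 0.14 ± 0.04 (limma adjusted p = 0.0267). *AKR1B1* had a slope of -0.31 ± 0.04 (limma adjusted p = 0.000526) and *EPHX1* of -0.22 ± 0.06 (limma adjusted p = 0.0214). *OSGIN1* had a slope of 0.29 ± 0.11, which did not pass (limma adjusted p = 0.0764), nor did *NQO1* at -0.08 ± 0.09 or *ABCC1* at -0.06 ± 0.08. Over all expressed loci, 12.3% were called as rising in 6AN and 13.1% as falling.

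The *HMOX1* call in 6AN did not rest on its high CT44 library, since without any single library the slope stayed between 0.34 and 0.58 and the adjusted p between 0.00656 and 0.0178. *AKR1B1* and *FTL* likewise kept their calls without any single library. *FTH1* lost its call without CT08, CT36, CT40, or CT44, with adjusted p up to 0.0933, and *EPHX1* lost it without CT00, with adjusted p = 0.0992. *OSGIN1* passed without CT28, with limma adjusted p = 0.0115. By Spearman's rank correlation with a permutation p, *FTH1* (adjusted p = 0.0564) and *EPHX1* (adjusted p = 0.0672) did not pass, and neither did *FTH1* in limma with no filter on low values (adjusted p = 0.0686).

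In control, *HMOX1* rose by 0.33 ± 0.08 log2 units per 24 hr (limma adjusted p = 0.0301) and *NQO1* had a slope of -0.31 ± 0.08 (limma adjusted p = 0.0405). The other 6 genes did not pass, with slopes of 0.05 ± 0.04 for *FTH1*, -0.08 ± 0.07 for *FTL*, -0.10 ± 0.06 for *AKR1B1*, -0.20 ± 0.07 for *EPHX1*, -0.08 ± 0.06 for *ABCC1*, and 0.10 ± 0.09 for *OSGIN1*. Among expressed loci, 3.13% were called as rising in control and 3.13% as falling. Both control calls depended on single libraries. *NQO1* lost its call when any 1 of 9 libraries was left out, with the highest adjusted p of 0.13 without CT00, the library with its highest value. *HMOX1* lost its call without CT00, CT04, CT36, CT40, or CT44, with adjusted p up to 0.113. Neither passed by Spearman's rank correlation (permutation adjusted p = 0.0929 for *HMOX1* and 0.111 for *NQO1*), and *NQO1* did not pass in limma with no filter on low values (adjusted p = 0.0522). The difference in slope between conditions was not tested, because the tables were normalized separately.

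**Figure D3:**
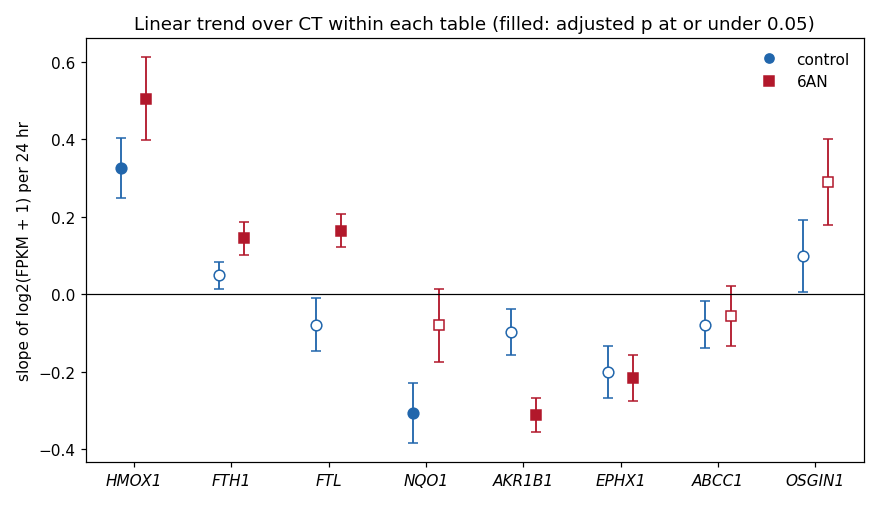
Slope of log2(FPKM + 1) per 24 hr from limma for the 8 expressed genes, with SE bars, in control (blue circles) and 6AN (red squares). Filled symbols have an adjusted p of at most 0.05: *HMOX1* and *NQO1* in control, and *HMOX1*, *FTH1*, *FTL*, *AKR1B1*, and *EPHX1* in 6AN.

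Trend calls in the lists around the pathway are given beside the shares over all expressed loci in 6AN, 12.3% rising and 13.1% falling. Among 27 other NRF2 targets, 7 rose (including *SRXN1*, at 0.33 ± 0.09 log2 units per 24 hr) and 3 fell. All 3 expressed aldo-keto relatives fell: *AKR1C3* at -0.50 ± 0.09, *AKR7A2* at -0.31 ± 0.06, and *AKR1A1* at -0.23 ± 0.05, beside *AKR1B1*. Of 15 iron-handling genes, 3 rose and 1 fell. Of 14 heme genes, 0 rose and 2 fell (*ALAD* and *HMOX2*), and of 7 regulators, 2 rose (*BACH1* and *MAFG*) and 1 fell, which was *MAFK* at -0.16 ± 0.05. The counts of falling genes among the other NRF2 targets, iron-handling genes, heme genes, and regulators were near or below the share over all loci. So was the count of rising genes in the heme list. In control, where 3.13% of loci rose and 3.13% fell, 2 of the 27 targets rose and 4 fell, 0 aldo-keto relatives passed, 0 iron-handling genes rose and 2 fell, 1 heme gene rose and 0 fell, and 1 regulator rose and 0 fell. The heme gene was *ALAD*, an enzyme of heme synthesis, with a slope of 0.20 ± 0.05 in control and -0.16 ± 0.05 in 6AN, and the regulator was *MAFG*.

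A 24 hr rhythm, tested by limma as a cosine and sine pair beside the linear term, was called for 0 of the 8 genes in either condition. The lowest adjusted p was 0.794 in control (*HMOX1*) and 0.67 in 6AN (*ABCC1*). Amplitudes were 0.0035 to 0.14 log2 units in control and 0.02 to 0.16 in 6AN. With 12 libraries the test called few loci of any kind. These were 0.00715% of expressed loci in control, which was the clock gene *PER3* alone, and 0% in 6AN. An unadjusted limma p under 0.05 was found for 949 loci in control and 1093 in 6AN. The period was fixed at 24 hr, and the part of this in the low counts was not tested. With another algorithm and another p-value threshold, the paper detected circadian transcripts in both conditions, clock genes among them. It also reports longer clock gene periods under the inhibitor. Its counts and those here are therefore not directly comparable. The design and the fixed period thus do not show that the 9 genes, or the 6AN course as a whole, lack a rhythm.

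The genes were not alike in shape over time. Among the 28 pairs of the 8 expressed genes, Pearson's r of log2(FPKM + 1) had a median of 0.16 in control (range -0.39 to 0.83) and 0.04 in 6AN (range -0.65 to 0.92), over 12 libraries each that share depth and trend. The highest pair in 6AN was *FTH1* with *FTL*, at 0.92, against 0.59 in control. *FTL* with *AKR1B1* was at 0.77 in control and -0.65 in 6AN. Across expressed loci, the course most like that of each gene, by the mean of r in both tables, was *GARS* for *HMOX1* (0.91), *COX7A2L* for *FTH1* (0.85), *RPS3* for *FTL* (0.91), *SMARCD1* for *NQO1* (0.85), *SNRPD3* for *AKR1B1* (0.91), *CLU* for *EPHX1* (0.91), *DOK4* for *ABCC1* (0.73), and *CAMLG* for *OSGIN1* (0.79). Each was picked as the highest r over all expressed loci, so a high value follows in part from the picking. No background for such a best match was computed.

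BMAL1 and CLOCK are the paired activators of the circadian clock. Of 439 sites shared by both factors in 6AN, 2 were assigned to the 9 genes, and of the 147 in control, 0 were. Among all expressed loci, 2.4% had a site assigned in the 6AN list and 0.866% in the control list, which is the shorter list. The site of *OSGIN1* (chr16:83952596-83953596) was at its promoter, 126 bases before the start, and covered the TGANTCA match shown above. Its CLOCK signal, in tags per 1000 bp scaled to 10000000 tags, was 77.2 in control and 165 in 6AN, BMAL1 was 44.9 and 41.2, H3K9ac was 56.8 and 95.7, H3K4me3 was 172 and 137, and input was 8.42 and 15.5. The log2 ratio of CLOCK, 1.08, was close to the median of 1.10 over all 439 sites, and that of BMAL1, -0.12, was under the median of 0.46. That of H3K9ac, 0.74, ranked 83 of 439 against a median of 0.15, and rested on only 8 tags in control and 45 in 6AN. The log2 ratio of input at this site was larger, at 0.81, and ranked 67 of 439 against a median of 0.37. Peaks of both factors had been called within this promoter in both conditions.

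The site of *FTH1* (chr11:61971461-61972461) was intergenic, 4301 bases before the start. CLOCK was 7.35 in control and 50.5 in 6AN there, BMAL1 was 15.4 and 41.8, and H3K9ac was 10.6 and 47.9, whereas H3K4me3 was 9.37 and 4.37 and input 9.32 and 9.84. Its log2 ratio ranked 10 of 439 for CLOCK, 23 for BMAL1, and 18 for H3K9ac, as a description of single libraries. The 439 sites were defined by peaks in 6AN, and at this site peaks were called in 6AN alone. Selection of the site thus favored higher BMAL1 and CLOCK signals in 6AN. Underlying tags were few, at 3 and 23 for CLOCK and 1.5 and 22.5 for H3K9ac, and the H3K9ac library of control held 1409550 tags against 4700141 in 6AN.

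**Figure D4:**
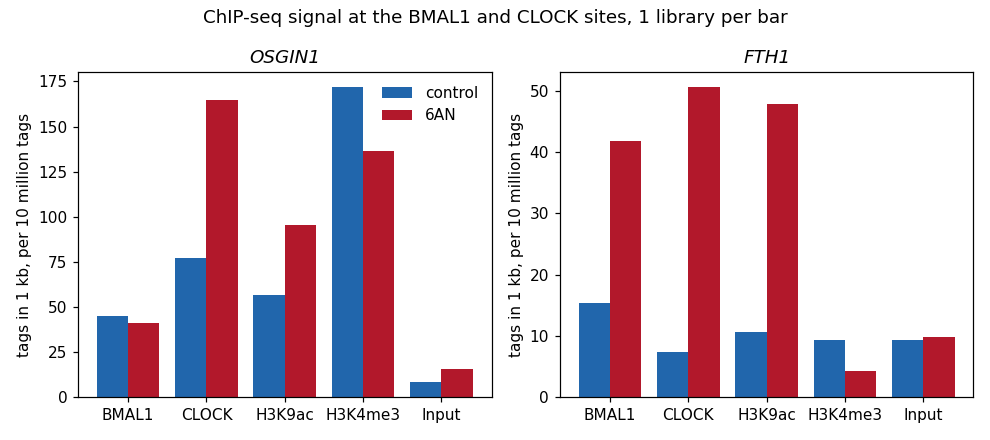
ChIP-seq signal in tags per 1 kb, scaled to 10000000 tags, at the *OSGIN1* promoter site (left) and the intergenic *FTH1* site (right), with 1 library per bar, control in blue and 6AN in red, and separate vertical scales from 0. CLOCK went from 77.2 to 165 at *OSGIN1* and from 7.35 to 50.5 at *FTH1*, while input was 8.42 and 15.5, and 9.32 and 9.84.

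Of the 9 genes, 4 had a BMAL1 or CLOCK peak within 10 kb of the locus, as did 32.2% of expressed loci. At *FTL*, a BMAL1 peak of 6AN spanned the start (chr19:48965271-48965471), and a BMAL1 peak of control merged with a CLOCK peak of 6AN 111 bases before it (chr19:48964986-48965198). *HMOX1* had a CLOCK peak of control alone (chr22:35371972-35372172), 8895 bases from the locus. *NQO1*, *AKR1B1*, *AKR1C1*, *EPHX1*, and *ABCC1* had none. With 1 library per antibody and condition, these signals have no replicate error.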

How the data were processed

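For RNA-seq in 24 *Bmal1*:*luc* U2OS libraries, the authors deposited FPKM per locus of a merged annotation on hg38, in 2 tables normalized separately. TopHat and Cufflinks are named in the submitters' processing notes, as are Bowtie, Bowtie2, and HOMER. For 10 ChIP-seq libraries, the authors deposited HOMER signal (tags in 1000 bp scaled to 10000000 tags) at shared sites, and a peak score for merged peaks, which was not used. No FPKM column was left out.

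Groups came from the labels. Members, lists, and tests were chosen with earlier results of these data known. Genes named were the 9 members, the expressed genes with the 2 highest and 2 lowest ratios of each other list, and the locus most like each member; *NFE2L2*, the genes sharing a locus or reads with a member, the markers, *BACH1*, *MAFG*, *ALAD*, *HMOX2*, and *PER3* were named after values were seen. A pseudocount of 1 (0.1 as alternative) and a minimum mean of 1 FPKM were used. Trends and rhythms were tested with limma 3.58.1 in R 4.3.3 (eBayes with an intensity trend), tested on simulated data. Other values used Python 3.11.15, NumPy 2.4.6, pandas 2.3.3, SciPy 1.17.1, and matplotlib 3.10.9. Starts of loci were converted to 1-based positions. Promoter sequences were from RefSeq (GRCh38.p14). With 1 library per condition and label, p-values measure the spread around a line over CT, which may be technical. Relative depth came from loci above 0 in 2 to 4 libraries of a table. Alternatives covered the pseudocount, the filter, centering, quantile normalization, moderation, rank correlation, the linear term, and leaving out each label.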

Additional observations from a re-analysis of the deposited data

How the results depend on the processing

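The counts of genes higher (2) and lower (2) in 6AN at all labels were unchanged by the pseudocount, centering, quantile normalization, and leaving out any label (2 to 2 for each). Quantile normalization gave *FTH1* a mean log2 ratio of 0.52 and *FTL* one of -0.19. Trend calls among the 8 genes in control were 1 with no filter on low values, 0 with Spearman's rank correlation, and 0 to 2 with a library left out. In 6AN they were 3 with rank correlation and 4 to 6 with a library left out. Over all loci, 876 trends were called in control (551 to 876 with a library left out, the lowest without CT00) and 3553 in 6AN (2478 to 3494). Rhythm calls over all loci in control were 1, or 0 without the linear term, and 0 to 2 with a library left out; in 6AN they were 0, and 0 to 1 with a library left out. Among the 8 genes they were 0 under each alternative. Libraries were matched by CT label for the ratios between conditions, and no paired test was run on them, because the genes were chosen by this contrast and the tables were normalized separately. Depth limits *AKR1C1*, and the separate normalization of the tables limits each ratio between conditions.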
